A study of Mus musculus with 8 samples.

Results

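Cells that run short of oxygen switch on a shared set of genes. In J774A.1, a mouse macrophage line, 10 genes grouped as hypoxia-inducible were followed: Hif1a, Egln1, Egln3, Vegfa, Adm, Bnip3, Ndrg1, Ankrd37, P4ha1 and Bhlhe40. They were taken by symbol, and all 10 were present among the 55487 genes of the expression table. Cultures received either LPS (1 μg/mL), a bacterial outer membrane component that activates macrophages, or LPS with UDCA (1 mM), a secondary bile acid, each for 24 h, with 4 libraries per group. LPS was therefore common to both groups, the labels name no untreated or low-oxygen culture, and every difference below compares LPS + UDCA with LPS alone. The labels do not say whether the 4 libraries came from separate cultures, so p-values measure the spread between these libraries, which may be technical. Values are TPM, reads divided by gene length and scaled per library to a nearly common total. They allow levels of different genes to be compared but keep no read depth.

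The transcription factor HIF-1 is a pair of an α subunit, encoded by Hif1a, and a β subunit, encoded by Arnt. While oxygen is present, prolyl hydroxylases encoded by the Egln genes mark the α subunit for destruction through the VHL ubiquitin ligase. Without oxygen the pair accumulates and binds a short DNA element in its target genes, several of which are also induced by other stresses. In macrophages LPS is known to raise Hif1a transcription as well, so that the α subunit can build up at normal oxygen. The files hold RNA only, and neither HIF-1 protein nor oxygen was measured in them.

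The identity of the cells was checked with marker genes. Of 9 macrophage markers, 8 reached 1 TPM, Mertk was listed at 0 in all 8 libraries, and the summed level ran from 3939 to 4191 TPM with LPS and from 1776 to 1994 TPM with LPS + UDCA. The markers did not move together, since 3 of the 8 were higher and 5 lower at an FDR under 0.05 from limma. Of all genes tested, 40.2% were higher and 32.3% lower, and past 2-fold as well 8.71% were higher and 8.44% lower. The macrophage surface proteins Adgre1 (F4/80, log2 fold change 1.27) and Fcgr1 (1.48) rose past 2-fold, and Itgam (-2.91), Lyz2 (-2.19), Cd68 (-1.39) and Csf1r (-1.35) fell past it, with Lyz2 the largest part of the sum with LPS and Cd14 (-0.39) with LPS + UDCA. Of 15 markers of other cell types, 1 reached 1 TPM (S100a8, a calcium-binding protein of neutrophils and activated macrophages, up to 21.2 TPM) and 5 were at 0 in every library. Their sum was 18.5 to 22.1 TPM with LPS and 2.56 to 9.44 TPM with LPS + UDCA. Both sums moved with the treatment, and their part in the results below was not tested. In such bulk RNA, fewer cells of a kind and less RNA per cell cannot be told apart.

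The 10 genes did not move as one. Adm, Vegfa and Hif1a rose more than 2-fold with UDCA, Bnip3, Ndrg1 and Egln1 rose by less, Bhlhe40 fell modestly and Ankrd37 fell to a ratio of mean TPM of 0.300. P4ha1 had nearly the same level in both groups, and Egln3 was listed at or near 0. A gene was tested if it averaged 1 TPM or more over the 8 libraries, which held for 9 of the 10 and for 11796 genes in all. Of the 9, 6 were higher and 2 lower at an FDR under 0.05 from limma, while 40.2% of all genes tested were higher and 32.3% lower. Past a fold change of 2 as well, 3 were higher and 1 was lower, against 8.71% and 8.44% of all genes tested. In each of the 9 genes the LPS and LPS + UDCA ranges were apart, as they were in 66.8% of all genes tested, so separation of the groups was the usual case in these data. The median log2 fold change of the 9 genes was 0.45, against 0.082 over all genes tested, and the median size of the change was 0.57 against 0.47. For each of the 9 genes the exact permutation test over the 70 arrangements of the libraries gave a 2-sided p of 0.029, the smallest it allows. Any gene whose groups are apart reaches this value, so it adds nothing to the separation above.

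**Figure D1:**
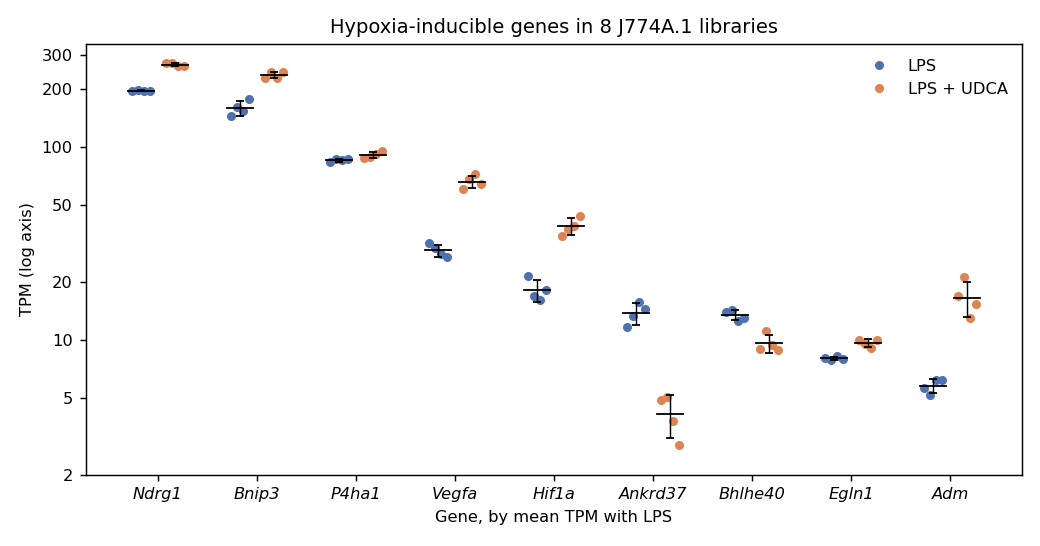
Level of the 9 hypoxia-inducible genes that were tested, in TPM on a log axis, with genes ordered by their mean with LPS. Each point is 1 library (4 with LPS in blue, 4 with LPS + UDCA in orange), with horizontal bars for means and error bars for SD. Adm, Vegfa and Hif1a lie clearly higher and Ankrd37 clearly lower with LPS + UDCA, and the points of P4ha1 nearly touch.

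**Figure D2:**
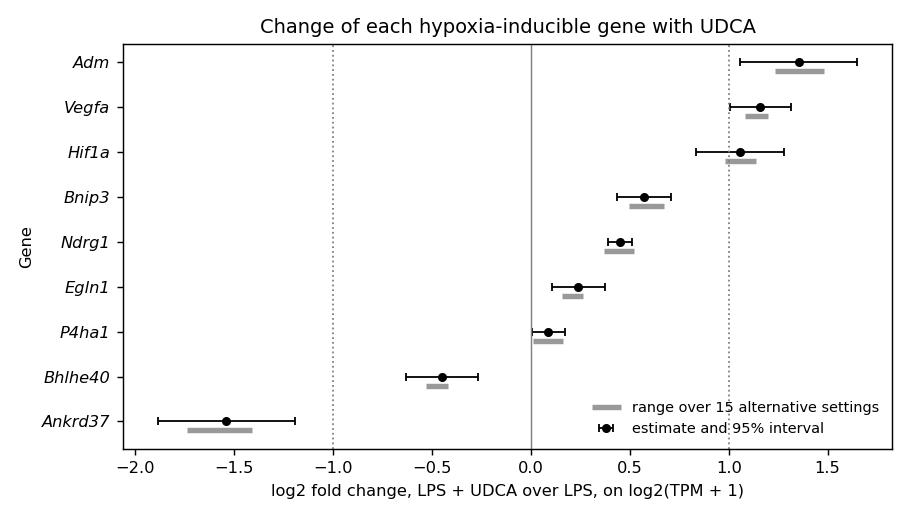
Change of the same 9 genes as log2 fold change of LPS + UDCA over LPS on log2(TPM + 1). Black points with bars are the estimates with 95% intervals from limma, grey bars span the estimates under 15 alternative settings, and dotted lines mark a 2-fold change. Adm (1.35) is highest and Ankrd37 (-1.54) lowest, and the interval of P4ha1 begins just above 0.

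The upstream DNA of the 4 genes past both thresholds is shown here, as genes of this set that moved in opposite directions. Whether they belong to one response in these cells was not tested. Each line gives the 250 bases before a RefSeq transcript start (GRCm38.p6), read along the strand of the gene. Capitals mark ACGTG and GCGTG, the core letters of the element that HIF-1 binds, on either strand, so that the opposite strand reads CACGT or CACGC, and a palindromic CACGTG counts on both strands.
Hif1a (chr12:73907617-73907866, plus strand): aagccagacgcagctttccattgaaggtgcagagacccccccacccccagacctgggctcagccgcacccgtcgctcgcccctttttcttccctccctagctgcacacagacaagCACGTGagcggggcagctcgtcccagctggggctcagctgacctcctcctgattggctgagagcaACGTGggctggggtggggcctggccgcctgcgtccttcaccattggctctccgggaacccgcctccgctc
Vegfa (chr17:46032378-46032627, minus strand): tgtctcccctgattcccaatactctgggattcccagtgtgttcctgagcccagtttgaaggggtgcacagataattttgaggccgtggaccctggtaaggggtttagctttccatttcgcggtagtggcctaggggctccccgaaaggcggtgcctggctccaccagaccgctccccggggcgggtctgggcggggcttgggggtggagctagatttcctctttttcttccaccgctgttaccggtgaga
Adm (chr7:110627407-110627656, plus strand): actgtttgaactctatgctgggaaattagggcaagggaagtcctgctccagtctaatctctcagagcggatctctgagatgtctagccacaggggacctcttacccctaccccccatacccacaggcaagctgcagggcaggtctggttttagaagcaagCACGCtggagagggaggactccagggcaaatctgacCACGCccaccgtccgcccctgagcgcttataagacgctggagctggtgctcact
Ankrd37 (chr8:45999851-46000100, minus strand): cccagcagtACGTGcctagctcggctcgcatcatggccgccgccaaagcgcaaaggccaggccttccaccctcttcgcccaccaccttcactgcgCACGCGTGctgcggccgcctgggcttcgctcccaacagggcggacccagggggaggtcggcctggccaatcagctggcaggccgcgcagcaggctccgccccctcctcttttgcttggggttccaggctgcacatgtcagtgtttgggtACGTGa

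RefSeq upstream sequence was matched for 8 of the 10 genes, leaving Ndrg1 and Bhlhe40. At the start closest to the annotated 5′ end, Ankrd37 held 4 matches, Hif1a 3, Adm 2 and Vegfa 0. In Ankrd37 2 of the matches overlap as the strands of one palindromic CACGCGTG, and in Hif1a 2 are the strands of one CACGTG. The 2 of Adm are both GCGTG on the opposite strand. For Hif1a and Ankrd37 the start used lies 6492 and 5857 bases inside the gene as GENCODE draws it. The second listed start of Vegfa, which lies inside the gene, had 2. Bnip3 had 5 matches, 2 of them the strands of one CACGTG, P4ha1 3, Egln1 2 and Egln3 1. At least 1 match was thus present in 7 of 8 genes, while 38.6% of 32851 upstream windows of the same length held one (16.6% ACGTG, 28.2% GCGTG). Both strings contain CG. The GC content was 50.8% in the window of Egln3 and 56.8% to 86.0% in those of the other genes, where the median of all windows was 52.4%. The background windows were not matched for GC content, so an enrichment cannot be read from these shares. Of the genes shown above, Ankrd37, which fell, had the most matches and alone held both strings in the window shown. Bnip3, which rose by less than 2-fold, had more matches and also held both strings. Whether the matches go with the direction of change was not tested. A match is a string of letters and no evidence of binding, and the absence of one in the first Vegfa window concerns these 250 bases only.

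**Figure D3:**
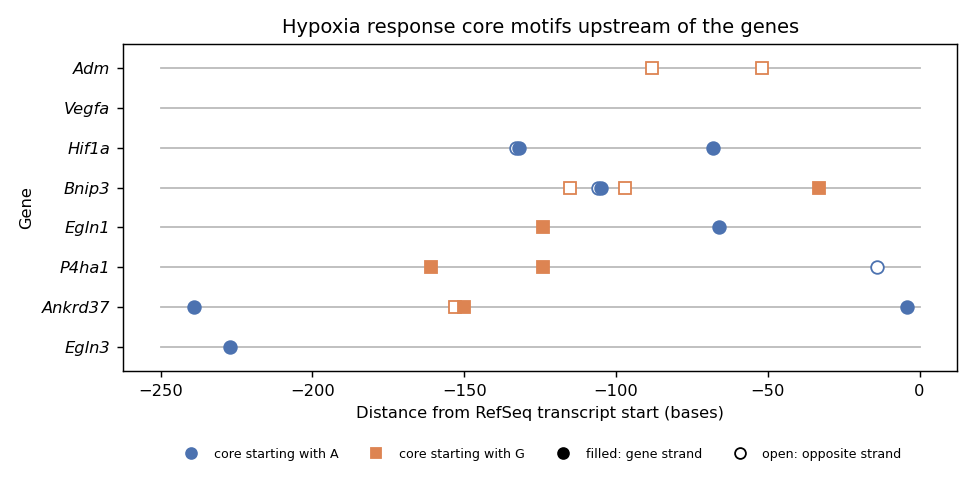
Position of the ACGTG (circles) and GCGTG (squares) matches in the 250 bases before the transcript start of 8 genes, in bases from the start, filled on the gene strand and open on the opposite strand. Genes are ordered from the highest log2 fold change (Adm) down to Ankrd37, with the untested Egln3 last, and 7 of the 8 lines carry at least 1 match.

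Hif1a encodes the regulated subunit of HIF-1 and lies on chromosome 12 from 73901375 to 73947530 of GRCm38. It had 21.42, 16.88, 16.08 and 18.14 TPM in LPS replicates 1 to 4, and 34.78, 37.44, 38.80 and 44.04 TPM in LPS + UDCA replicates 1 to 4. Every library with UDCA was higher than every library without it, and the lowest of them exceeded the highest LPS library by more than the SD of either group. The means were 18.1 ± 2.35 and 38.8 ± 3.89 TPM (SD, n = 4), a ratio of 2.14, and the log2 fold change was 1.06 (95% interval 0.84 to 1.28, adjusted p = 9.9e-06 from limma). That interval includes values under 2-fold. Of its 31-base words 6.72% occur in other genes, and the overlapping Gm15283 and Gm49321 were at 0 in every library. The log2 fold change was 0.98 with median-of-ratios scaling and 0.997 without LPS + UDCA replicate 4, both still past the FDR but short of the fold change minimum.

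The hydroxylases behaved differently from each other in level. Egln1, the main oxygen-sensing prolyl hydroxylase, on chromosome 8 from 124908587 to 124949324, had 8.05, 7.86, 8.25 and 7.92 TPM with LPS and 10.04, 9.54, 9.12 and 9.95 TPM with LPS + UDCA. The groups were narrow and apart, but the shift was small, from 8.02 ± 0.173 to 9.66 ± 0.422 TPM (SD, n = 4, log2 fold change 0.24, SE 0.058, adjusted p = 0.0045 from limma). Egln3, a hydroxylase that is itself a sensitive target of HIF in many cells, on chromosome 12 from 54178981 to 54203860, had a value of 0.02 TPM in LPS replicate 3, and its other 7 values were 0. It was not tested, and no fold change is given. The number of reads behind a 0 is unknown, so a silent gene and a failed estimate look alike here.

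Vegfa and Adm encode secreted proteins. Vegfa, the growth factor that drives the growth of blood vessels, lies on chromosome 17 from 46016993 to 46032369. Its levels were 31.64, 29.86, 28.00 and 26.95 TPM with LPS and 60.73, 68.01, 72.09 and 64.28 TPM with LPS + UDCA. The lowest UDCA library stood at nearly double the highest LPS library. Mean levels were 29.1 ± 2.07 and 66.3 ± 4.88 TPM (SD, n = 4), a ratio of 2.28, with a log2 fold change of 1.16 (95% interval 1.01 to 1.31, adjusted p = 5.3e-07 from limma).

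Adm encodes adrenomedullin, a peptide that widens blood vessels, and lies on chromosome 7 from 110627661 to 110629820. With LPS it was among the weaker members, at 5.61, 5.19, 6.18 and 6.19 TPM, and with LPS + UDCA it reached 16.84, 21.15, 12.95 and 15.33 TPM. The treated libraries were more scattered (coefficient of variation 20.8% against 8.37%), yet all lay well above the LPS libraries. The rise from 5.79 ± 0.485 to 16.6 ± 3.45 TPM (SD, n = 4) was a ratio of 2.86, the highest of the set, and the log2 fold change was 1.35 (95% interval 1.06 to 1.65, adjusted p = 1.4e-05 from limma).

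Bnip3 and Ndrg1 had the highest levels of the set. Bnip3, an outer mitochondrial membrane protein that promotes the removal of mitochondria, lies on chromosome 7 from 138890836 to 138909519. It had 144.72, 160.63, 154.19 and 177.24 TPM with LPS and 228.53, 245.43, 228.56 and 244.32 TPM with LPS + UDCA. All treated libraries were higher, by more than the spread of either group. The log2 fold change was 0.57 (SE 0.061, adjusted p = 2.4e-05 from limma), a ratio of 1.49. Of the 31-base words in Bnip3 transcripts, 57.0% also occur in transcripts of other genes, mainly the long noncoding RNA AC160336.1 (46.7%) and the antisense gene Gm45507 (18.4%). The genes that shared at least 1% of these words were listed at no more than 0.53 TPM in any library.

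Ndrg1, a cytoplasmic protein induced by several stresses and linked to growth arrest, lies on chromosome 15 from 66929318 to 66969640. It was the most even of the genes with LPS, at 194.96, 196.61, 195.84 and 195.37 TPM (coefficient of variation 0.362%), and stood at 272.12, 271.36, 263.48 and 263.49 TPM with LPS + UDCA. The shift was moderate in ratio (1.37) but far outside the spread between libraries. Its log2 fold change was 0.45 (SE 0.027, adjusted p = 6.3e-07 from limma). Of its 31-base words 7.32% occur in other genes, and the overlapping Gm17035 and Gm2895 did not exceed 0.52 TPM.

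Ankrd37, a small protein of ankyrin repeats whose function is little known, was the only member that fell past both thresholds. It lies on chromosome 8 from 45996902 to 46005707. It had 11.63, 13.25, 15.75 and 14.45 TPM with LPS and 4.87, 5.04, 3.79 and 2.84 TPM with LPS + UDCA. The highest UDCA library was less than 50% of the lowest LPS library. Mean levels were 13.8 ± 1.75 and 4.13 ± 1.03 TPM (SD, n = 4), and the log2 fold change was -1.54 (95% interval -1.89 to -1.19, adjusted p = 1.6e-05 from limma). The exons of Ankrd37 overlap those of Lrp2bp and Ufsp2 on the opposite strand, and 21.4% of its 31-base words occur in other genes, 19.0% in Lrp2bp and 1.76% in Ufsp2. Lrp2bp did not exceed 0.18 TPM in any library. Ufsp2, a protease for the modifier UFM1, ran from 52.4 to 61.7 TPM with LPS and from 56.3 to 67.5 TPM with LPS + UDCA, ranges that overlap. Whether the counting used the strand is not given in the sources used here.

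Bhlhe40 encodes a basic helix-loop-helix repressor that is active in macrophages and in the circadian clock, and lies on chromosome 6 from 108660629 to 108666925. Its levels were 13.88, 14.31, 12.55 and 13 TPM with LPS and 9, 11.14, 9.38 and 8.89 TPM with LPS + UDCA. The groups did not overlap, with LPS + UDCA replicate 2 closest to the LPS range. The log2 fold change was -0.45 (SE 0.081, adjusted p = 7.8e-04 from limma), a ratio of 0.715.

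P4ha1, the catalytic α subunit of the enzyme that hydroxylates proline in collagen, lies on chromosome 10 from 59323296 to 59373304. It had 83.55, 86.81, 85.40 and 86.32 TPM with LPS and 88.04, 88.62, 92.24 and 95.16 TPM with LPS + UDCA. The ranges were apart by a little over 1 TPM. Its log2 fold change was 0.088 (95% interval 0.0041 to 0.17, adjusted p = 0.057 from limma), which did not pass. With quantile normalization the adjusted p was 0.0045 and with median-of-ratios scaling 0.85, and leaving out LPS + UDCA replicate 1 or 2 gave 0.049 each.

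As TPM is per gene length, the levels could be ordered. With LPS the order by mean TPM was Ndrg1 (195.7), Bnip3 (159.2), P4ha1 (85.5), Vegfa (29.1), Hif1a (18.1), Ankrd37 (13.8), Bhlhe40 (13.4), Egln1 (8.02), Adm (5.79) and Egln3 (0.005). The ranges of Ankrd37 and Bhlhe40 overlapped, and no other neighbours in the order did. With LPS + UDCA the upper 5 kept their places, Adm moved up to place 6 and Ankrd37 down to place 9, and the overlapping neighbours were Egln1 and Bhlhe40. Ndrg1 stood above 94.5% of the genes tested with LPS and above 96.0% with LPS + UDCA, whereas Ankrd37 went from above 50.3% to above 21.2%.

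The rest of the HIF machinery was followed in a list of 17 genes, of which 14 were tested. At an FDR under 0.05 from limma 9 were higher and 3 lower, and past the fold change minimum 2 were higher and 1 lower (median log2 fold change 0.58). Of all genes tested 40.2% were higher and 32.3% lower, and 8.71% and 8.44% past the minimum. Arnt, the obligate partner of Hif1a, had 25.18, 24.62, 25.43 and 23.90 TPM with LPS and 55.13, 52.00, 52.03 and 54.77 TPM with LPS + UDCA. Like Hif1a it stood at about double the level in every treated library (log2 fold change 1.08, SE 0.042, adjusted p = 5.2e-08 from limma). Crebbp, the coactivator CBP that HIF-1 recruits, rose from 4.26 ± 0.596 to 11.97 ± 0.553 TPM (SD, n = 4, log2 fold change 1.31). Cited2 competes with HIF-1α for that coactivator and is itself a HIF target. It fell from 405.04, 383.34, 330.82 and 330.08 TPM to 76.09, 76.30, 65.35 and 64.71 TPM (log2 fold change -2.34, SE 0.085, adjusted p = 3.3e-08 from limma), the lowest value of this list.

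Among the other sensors, Hif1an, the asparagine hydroxylase that blocks coactivator binding, rose from 7.05 ± 0.427 to 11.8 ± 0.286 TPM (SD, n = 4, log2 fold change 0.67). Vhl, which recognises hydroxylated HIF-1α, had 14.8 ± 1.57 and 12.3 ± 0.826 TPM, with groups that overlapped (log2 fold change -0.24, adjusted p = 0.027 from limma). Egln2 stood at 33.7 ± 1.30 and 34.2 ± 2.70 TPM (log2 fold change 0.019, adjusted p = 0.79 from limma), which makes it the Egln gene with the highest TPM in both groups. Epas1, which encodes HIF-2α, had 0.02 TPM in LPS replicate 1, 0.01 TPM in LPS replicate 2 and 0 elsewhere.

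Of 33 metabolic targets of HIF 30 were tested, and 5 were higher and 21 lower at an FDR under 0.05 from limma, with a median log2 fold change of -0.34, against 40.2% higher, 32.3% lower and a median of 0.082 over all genes tested. Past the fold change minimum 1 was higher and 3 were lower, against 8.71% and 8.44% of all genes tested, so that the count past the minimum was near the background. Gpi1, which interconverts glucose and fructose phosphates, fell from 650.1 ± 8.30 to 270.6 ± 15.7 TPM (SD, n = 4, log2 fold change -1.26). Pfkfb3, which makes the activator of phosphofructokinase, fell from 49.0 ± 3.22 to 21.8 ± 2.03 TPM (-1.14), and Ldha, which turns pyruvate into lactate, from 2440 ± 23.9 to 1211 ± 68.8 TPM (-1.01). Ldha was short of the minimum with quantile normalization (-0.97) and without LPS + UDCA replicate 4 (-0.98). Gbe1, the glycogen branching enzyme, rose from 4.48, 3.20, 3.83 and 5.46 TPM to 14.81, 15.67, 16.11 and 18.76 TPM (log2 fold change 1.74, SE 0.13, adjusted p = 2.8e-06 from limma). Gys1, glycogen synthase, was also higher, by less (log2 fold change 0.59). Slc2a1, the glucose transporter GLUT1 and a classic HIF target, had 354 ± 9.59 and 379.8 ± 23.1 TPM (log2 fold change 0.098, adjusted p = 0.078 from limma).

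A further list held 36 targets outside metabolism, and 20 were tested. At an FDR under 0.05 from limma 10 were higher and 5 lower, and past the fold change minimum 3 were higher and 2 lower (median log2 fold change 0.20). Against the 40.2% and 32.3%, and 8.71% and 8.44%, of all genes tested, these counts were not far from the background. Hmox1, which breaks down heme, rose from 2526 ± 33.9 to 7653 ± 134 TPM (SD, n = 4, log2 fold change 1.60). Ddit4, an inhibitor of the growth kinase mTORC1, rose from 61.0 ± 3.57 to 149 ± 2.09 TPM (1.28), and Kdm3a, a histone demethylase, from 9.09 ± 1.37 to 19.8 ± 2.08 TPM (1.05). Kdm3a was short of the minimum under both other scalings (0.98 and 0.97) and without LPS replicate 3 (0.98) or LPS + UDCA replicate 4 (0.997). Edn1, the vasoconstrictor endothelin, was at 18.58 to 20.30 TPM with LPS and at 0.27 to 0.42 TPM with LPS + UDCA (log2 fold change -3.95). Nos2, which makes nitric oxide, fell from 293 ± 7.53 to 75.8 ± 4.16 TPM (log2 fold change -1.94).

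Close relatives of the 10 genes were set beside them. Bnip3l, the mitochondrial relative of Bnip3, had 56.20, 49.00, 65.08 and 62.91 TPM with LPS and 49.63, 61.32, 68.67 and 77.13 TPM with LPS + UDCA, with overlapping groups (log2 fold change 0.13, SE 0.14, adjusted p = 0.42 from limma). P4ha2 and Bhlhe41 were low, at no more than 1.42 and 0.85 TPM in any library. Pgf, a relative of Vegfa, ran from 0.30 to 0.40 TPM with LPS and from 0 to 0.16 TPM with LPS + UDCA. These 3 genes were under the limit for testing. The difference between the changes of Bnip3 and Bnip3l was not tested.

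Receptors for the secreted members mostly averaged under 1 TPM, and 3 of 9 listed genes were tested. Nrp2, a coreceptor for VEGF proteins, fell from 112.59, 101.42, 94.32 and 109.69 TPM to 48.67, 54.44, 47.57 and 48.77 TPM (log2 fold change -1.05, SE 0.066, adjusted p = 8.2e-07 from limma). Calcrl, the adrenomedullin receptor, also fell, from 17.3 ± 2.18 to 10.3 ± 1.64 TPM (SD, n = 4, log2 fold change -0.70). Flt1, a receptor for VEGF-A, was scattered, with 4.18 to 6.74 TPM against 0.88 to 6.09 TPM (adjusted p = 0.12 from limma). Kdr, the main VEGF-A receptor of vessels, did not exceed 0.06 TPM, and of the partners that Calcrl needs at the membrane Ramp1 was listed at 0 throughout while Ramp2 did not exceed 0.34 TPM and Ramp3 0.17 TPM.

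**Figure D4:**
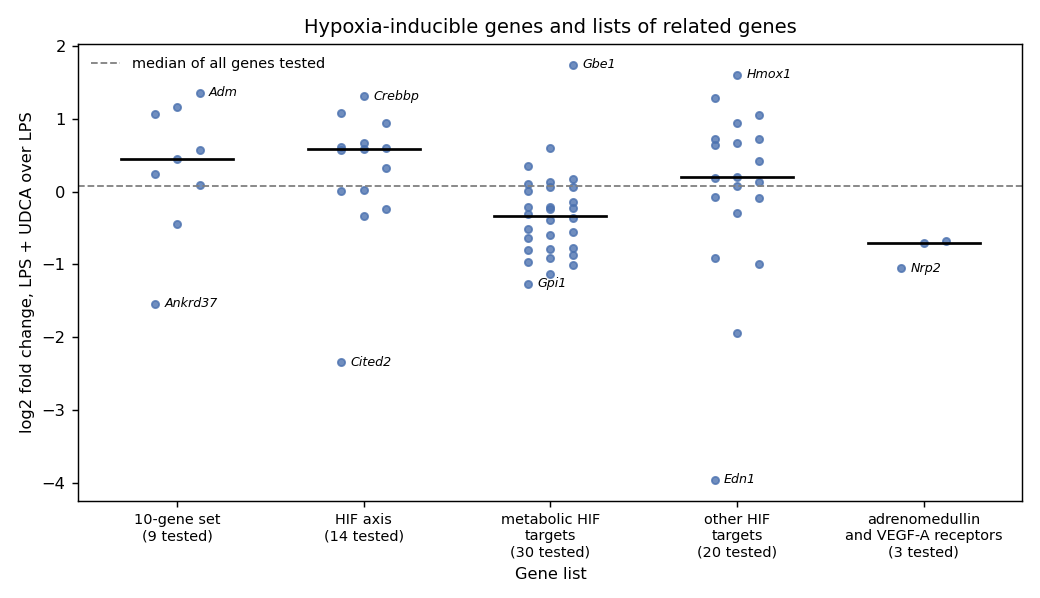
Log2 fold change of LPS + UDCA over LPS for each tested gene (points) of the 10-gene set, the HIF machinery (HIF axis) and 3 lists of related genes, with black bars for medians and a dashed line for the median of all genes tested (0.082). The 10-gene set and the HIF machinery have medians above that line (0.45 and 0.58) and the metabolic targets below it (-0.34), and each of these 3 sets holds genes on both sides.

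The genes nearest to Adm and Ankrd37, the extremes of the set, were found by Euclidean distance between profiles of log2(TPM + 1) over the 8 libraries, less the mean of the LPS libraries. With only 2 groups such a distance mainly finds genes with a like change, and it is given as a description. For Adm these were Hk1os (distance 0.32, from 0.815 ± 0.185 to 3.64 ± 0.916 TPM), Sos2 (0.39, from 6.20 ± 0.570 to 17.3 ± 1.67 TPM) and Angptl6 (0.41, from 38.2 ± 1.32 to 97.7 ± 5.99 TPM). For Ankrd37 they included Cyth4 (distance 0.38, from 180.5 ± 6.15 to 61.6 ± 11.2 TPM) and Mgarp (0.40, from 6.64 ± 0.769 to 1.56 ± 0.630 TPM), each with SD and n = 4. Hk1os averaged under 1 TPM with LPS, where this scale understates the change, so its distance from Adm depends on the added 1.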

How the data were processed

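Total RNA of J774A.1 cells was sequenced in 8 libraries, 4 per group, from Illumina TruSeq preparations. The authors deposited a table of TPM per gene, with 1 column per library and 2 decimals. The unit was read from the column sums. They ran from 973190 to 977485 with LPS and from 958918 to 962737 with LPS + UDCA. The totals thus differed between the groups, and the main fit did not rescale them. The submitters' processing notes name Bowtie 0.12.2 and the mm10 (GRCm38) build, without roles, and the counting program is not given in the sources used here. Read depth cannot be recovered from TPM. The error given is therefore the spread of 4 libraries, without a counting error.

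Values were analysed as log2(TPM + 1) for genes averaging 1 TPM or more, with limma 3.58.1 in R 4.3.3 (lmFit, then eBayes with a mean-variance trend). P-values were Benjamini-Hochberg adjusted over all 11796 genes tested, and the thresholds were a fold change of 2 and an FDR of 0.05. Fold changes on this scale understate the change of weakly expressed genes. Ratios are of mean TPM. The procedure was tested on simulated data. Genes were taken by symbol, and Aldoa, which is on more than 1 row, by its row of highest TPM. Ero1a is listed as Ero1l. The genes and lists were chosen with earlier results of these data known. Named were the 10 genes, genes of each HIF and receptor list past both thresholds, close relatives and partners, and the nearest profiles, and other genes named (Gys1, Slc2a1, cell type markers, receptors under the limit, overlapping genes and those of the closing section) were chosen after their values were seen. Of the nearest profiles, 1 is not reported here. Positions, overlaps and 31-base words are from GENCODE M21 on GRCm38, and upstream sequences from RefSeq. Tables were made with pandas 2.3.3 in Python 3.11.15, and figures with matplotlib 3.10.9.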

Additional observations from a re-analysis of the deposited data

Results flagged for a closer look

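For Egln3, LPS replicate 3 was listed at 0.02 TPM and the other 3 LPS libraries at 0, so that the whole range of the group lay between that library and the rest, past Dixon's 95% critical value. The table is kept to 2 decimals, and the value was not analysed further. Of 19 groups of 4 values from the 10 genes, this was the only one past the critical value. With the other 3 values tied at 0, Dixon's ratio is 1 whatever the remaining value is. The flag therefore carries no weight, and a chance rate of about 1 in 20 does not apply to it.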

How the results depend on the processing

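Each of the 9 genes tested kept its direction under the 15 alternatives, and 8 of them also their side of the FDR. Of these 8, Egln1 came closest to the limit. Its adjusted p from limma was 0.044 with quantile normalization and 0.027 with median-of-ratios scaling. P4ha1, with a log2 fold change of 0.088, passed at 0.16 with quantile normalization and at 0.10 without LPS + UDCA replicate 1 or 2. Over the alternatives the log2 fold change ran from 1.24 to 1.48 for Adm, 1.08 to 1.20 for Vegfa, 0.98 to 1.14 for Hif1a, 0.49 to 0.67 for Bnip3, 0.37 to 0.52 for Ndrg1, 0.16 to 0.27 for Egln1, -0.53 to -0.42 for Bhlhe40 and -1.74 to -1.41 for Ankrd37. Without the fold change minimum 6 of the genes were called higher and 2 lower, and 12 of the HIF machinery, 26 metabolic and 15 other targets were called, against 3, 4 and 5 with it, while 8548 of all 11796 genes tested passed the FDR. Hif1a lost the 2-fold call with median-of-ratios scaling and without LPS + UDCA replicate 4, leaving 2 genes called higher. Median-of-ratios scaling lowered the median of all genes tested from 0.082 to 0.010. Groups share replicate numbers, but deviations of same-numbered libraries correlated by only -0.035 to 0.15, so the numbers were not treated as pairs. In the fit with a replicate block 3 of the genes were called higher and 1 lower, as without it. Read depth is unknown, which limits what can be said of genes near 0, such as Egln3.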

Other observations

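Within the wider list of HIF targets, some genes of related function were picked out after their values were seen. The histone demethylase genes Kdm4b and Kdm4c were higher with LPS + UDCA, as was Kdm3a. Of all genes tested, 40.2% were higher at an FDR under 0.05 from limma. Kdm4b stood at 12.2 ± 0.855 and 16.8 ± 2.89 TPM (SD, n = 4, log2 fold change 0.41, adjusted p = 0.0071 from limma), and Kdm4c at 4.35 ± 0.515 and 7.48 ± 0.452 TPM (0.67, adjusted p = 1.1e-04 from limma). The lipid droplet genes went in opposite directions. Plin2, a coat protein of the droplet, rose from 152 ± 3.22 to 236 ± 9.84 TPM (log2 fold change 0.63), and Hilpda, an inhibitor of triglyceride breakdown, fell from 53.4 ± 4.26 to 28.0 ± 2.93 TPM (-0.91). Ero1l (Ero1a), an oxidase of protein folding in the endoplasmic reticulum, rose from 177 ± 5.25 to 340.1 ± 19.4 TPM (log2 fold change 0.93).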
